A study of Homo sapiens with 8 samples.

Results

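Claudins and other tight junction genes were followed in 5 human cancer cell lines on 8 two-colour microarrays. The 9 genes were CLDN1, CLDN3, CLDN4, CLDN7, CLDN11, CLDN12, OCLN, TJP1 and F11R, out of 43317 gene names on the array. They were chosen by symbol from the gene names of the array design, with every non-control probe kept, which gave 13 of 58201 probes. CLDN11 was included because it was higher on both arrays of PIR siRNA transfectants, so its values on those arrays are a description and carry no test.

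Tight junctions seal the space between neighbouring epithelial cells. Claudins are membrane proteins whose extracellular loops join across that space and set which ions pass, occludin is another membrane protein of the same strands, and junctional adhesion molecules of the immunoglobulin family sit beside them. Scaffold proteins of the ZO family tie all of these to the actin cytoskeleton, and carcinoma cells often keep some claudins and lose others.

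On every array the Cy3 channel held RNA of mock cells, which had no transfection, and the Cy5 channel that of transfected cells of the same line, and no dyes were swapped. PC3 prostate cancer cells received siRNAs against PIR, the gene of the nuclear protein Pirin, 1 array each for si-PIR-2 and si-PIR-3. SK-MES-1 lung squamous cell carcinoma cells received miR-144-5p or miR-144-3p, PANC1 pancreatic cancer cells miR-130-5p or miR-130-3p, and both SW1990 cells, a pancreatic cancer line, and MDA-MB-231 cells, a breast cancer line, received miR-204-5p, with 1 array each. The RNA was delivered with Lipofectamine RNAiMAX, which the mock cells did not receive as far as the labels say, so the transfected RNA and the transfection itself cannot be told apart on any array. The labels do not say which culture or RNA preparation supplied the mock channel of arrays of the same line, nor which member of the miR-130 family was used. All ratios below are log2 of transfected over mock, after background correction with an offset of 50 and loess within each array, so that 1 is a doubling and the ratios of dim probes are understated.

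Between 41.4% and 46.4% of the probes were well above background in Cy3 and between 49.8% and 54.6% in Cy5, and no spot was saturated. PIR, the targeted gene, had ratios of -4.58 and -3.80 on the si-PIR-2 and si-PIR-3 arrays. EPCAM, KRT8, KRT18 and KRT19, markers of epithelial cells, were well above background in the mock cells of all 5 lines, whereas E-cadherin (CDH1) was not in SK-MES-1 or PANC1 cells. The epithelial regulators ESRP1 and GRHL2 were not well above background in SK-MES-1, MDA-MB-231 or PANC1 cells. The mesenchymal markers VIM, ZEB1 and CDH2 were in all 5 lines, CDH2 at a Cy3 intensity of only 30.9 in MDA-MB-231 cells. FN1, another mesenchymal marker, was not in PANC1 cells. The squamous keratins KRT5 and KRT6A were not well above background in the SK-MES-1 mock cells, where TP63 and KRT14 were, at Cy3 intensities of 34.4 and 42.8. In the SW1990 mock cells KRT5, KRT6A and KRT14 were well above background, at Cy3 intensities of 43.9, 954 and 436, whereas TP63 was not. These markers therefore do not set SK-MES-1 cells apart. The androgen target KLK3 was not well above background in the PC3 mock cells. The leukocyte marker PTPRC was well above background in all 5 lines at mock levels of 6.02 to 6.24 on the log2 scale.

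The mature sequences of the miRNAs that could be named without doubt are shown because each transfection differs by the seed, bases 2 to 8, which is in capitals. They were taken from RefSeq on GRCh38.p14.
hsa-miR-204-5p: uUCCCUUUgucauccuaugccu
hsa-miR-144-3p: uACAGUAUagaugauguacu
hsa-miR-144-5p: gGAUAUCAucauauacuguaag
The miR-204-5p sequence lies at chr9:70810031-70810052, and both miR-144 arms lie on the same hairpin, at chr17:28861548-28861567 for the 3p arm and chr17:28861583-28861604 for the 5p arm, all on the minus strand. The 3 seeds differ from each other.

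Of the 13 probes, 2 cross an exon boundary and therefore read spliced mRNA only, the CLDN7 probe and 1 of 2 OCLN probes. They are shown 5′ to 3′ because the genome they span is longer than their 60 bases, and each holds 1 reading frame without a stop.
CLDN7: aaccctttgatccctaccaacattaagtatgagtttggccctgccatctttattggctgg
OCLN: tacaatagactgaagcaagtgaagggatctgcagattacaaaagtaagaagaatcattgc
By the array annotation on hg19, they lie at chr17:7163822-7163986 on the minus strand and chr5:68847386-68849429 on the plus strand. RefSeq also lists OCLNP1, a transcribed pseudogene of OCLN on chromosome 5, and whether the OCLN probes read it was not tested. The probe that stood for each of the 9 genes was its brightest, and all 9 of these were well above background in both channels on all 8 arrays.

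Before transfection, 6 of the 9 genes differed between the 5 cell lines by 2 or more on the log2 scale, against 9.85% of the 24769 genes well above background in Cy3 on at least 1 array. The median range over the lines was 2.05 for the 9 genes and 0.70 for all of those genes. The 9 genes were chosen with earlier results of these data known and were well above background on every array. The genes they are set against needed only 1 such array, and the offset narrows the range of dim probes. The comparison is therefore not of like with like and is only a description. Between the 2 arrays of 1 line, the mock levels of a gene differed by a median of 0.0436, with a 95th percentile of 0.144. Since the labels name no separate mock cultures of a line, no test between lines was made. Mock levels compare lines for 1 probe, and not genes with each other.

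CLDN3, which with CLDN4 serves as a receptor for Clostridium perfringens enterotoxin, had the widest range on this scale, though with the processed Cy3 signal scaled to the 75th percentile CLDN11, CLDN7 and CLDN1 ranged more widely (6.10, 5.67 and 5.31 against 5.07). Its mock level was 11.27 in PC3, 8.50 in PANC1, 8.12 in SK-MES-1, 7.84 in SW1990 and 7.04 in MDA-MB-231 cells, a range of 4.23 or 18.8-fold. PC3 cells stood 2.77 above the next line, and every step in this order was larger than the largest difference between arrays of 1 line for this probe, 0.134. Over the 5 lines, the 5 genes whose mock levels followed CLDN3 most closely among 2132 candidate genes with a wide range were SMKR1, RNF157, HEY1, SCARA5 and HAS3, with Pearson's r from 0.978 to 0.984. With only 5 points, which share their libraries, and with PC3 far above the rest, these values describe a PC3-high pattern.

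CLDN4 was also highest in PC3 cells, at 13.81, followed by SW1990 at 12.93, SK-MES-1 at 12.17, PANC1 at 12.04 and MDA-MB-231 at 11.76. The step of 0.134 from SK-MES-1 to PANC1 cells was within the 0.257 by which the 2 PC3 arrays differed for this probe. A second CLDN4 probe, annotated to another transcript, was above background in neither channel on any array and is not used.

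CLDN7, an epithelial claudin that binds EpCAM, separated the lines in another way. Its mock level was 9.39 in SW1990, 8.69 in PANC1 and 8.63 in MDA-MB-231 cells, but 6.63 in PC3 and 6.07 in SK-MES-1 cells. The gap of 1.995 between MDA-MB-231 and PC3 cells divided the lines into a high and a low group, and PANC1 and MDA-MB-231 cells differed by 0.06, no more than the 0.062 between arrays of 1 line. PC3 cells thus combined the highest levels of CLDN3 and CLDN4 with a low level of CLDN7.

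CLDN1, a claudin required for the barrier of the skin, ran from 9.12 in SW1990 through 8.52 in SK-MES-1, 7.75 in PANC1 and 6.75 in PC3 to 6.19 in MDA-MB-231 cells. Each step exceeded the 0.12 between the PC3 arrays. CLDN11, best known from myelin and from the tight junctions of Sertoli cells, was 9.14 in PC3, 9.003 in SW1990 and 8.87 in SK-MES-1 cells, 3 levels that differed by less than the 0.157 between the 2 PANC1 arrays from one to the next. It was 7.01 in PANC1 and 6.02 in MDA-MB-231 cells, where the Cy3 intensity was 25.9 against a median local background of 20. Of the 6 claudins, 4 (CLDN1, CLDN3, CLDN4 and CLDN11) had their lowest mock level in MDA-MB-231 cells, and CLDN7 and CLDN12 had theirs in SK-MES-1 cells.

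The genes of the other roles ranged less, apart from F11R, which encodes the junctional adhesion molecule JAM-A. F11R was 11.12 in SW1990, between 10.24 and 10.32 in SK-MES-1, PANC1 and PC3, and 9.07 in MDA-MB-231 cells, and its second probe gave the same highest and lowest lines. CLDN12, a claudin without the usual PDZ-binding end, ranged by 0.56, from 8.15 in SW1990 to 7.59 in SK-MES-1 cells. OCLN ranged by 0.87, from 6.90 in PANC1 to 6.04 in SK-MES-1 cells, and its second probe gave the same order of lines. The range of OCLN was 1.29 without background correction and 2.39 with the processed Cy3 signal. TJP1, which encodes the scaffold ZO-1, ranged by 0.69, from 9.60 in SK-MES-1 to 8.92 in MDA-MB-231 cells. Of all genes, 50.6% ranged as widely as TJP1 and 57.9% as widely as CLDN12.

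**Figure D1:**
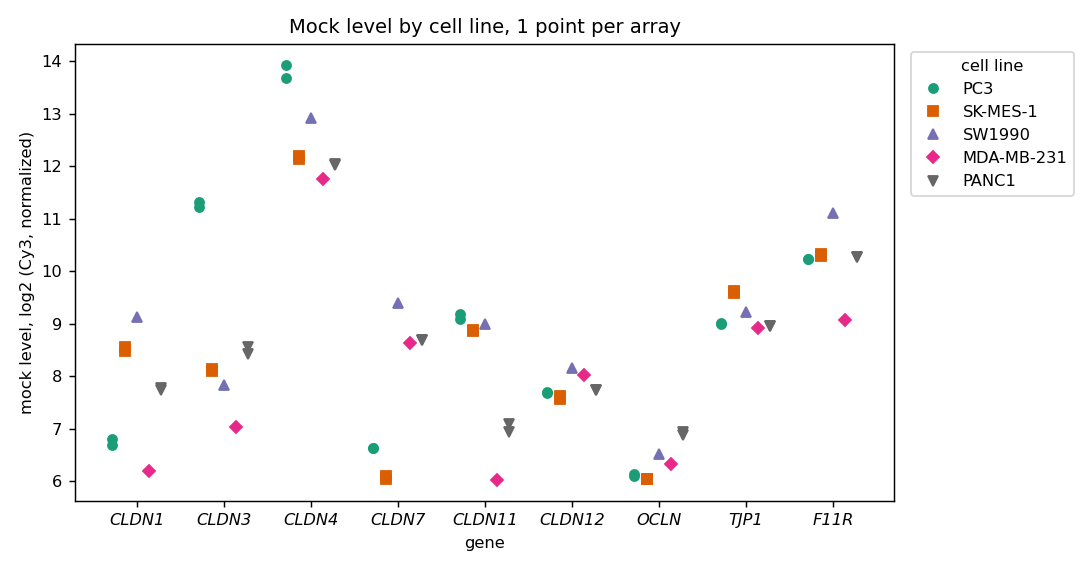
Mock level (Cy3, normalized log2 scale) of the 9 genes in 5 cell lines, with 1 point for each array, so that PC3, SK-MES-1 and PANC1 have 2 points. CLDN3 and CLDN4 were highest in PC3 cells, at 11.27 and 13.81, and CLDN7 was low in PC3 and SK-MES-1 cells.

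After transfection, CLDN11 was the only one of the 9 genes with a ratio of 1 or more, on 5 of the 8 arrays, and CLDN3 the only one with a ratio of -1 or less, on 1 array. The other ratios, of 72 in all, lay between these limits. On the si-PIR-2 array, 0.343% of all genes reached 1 and 0.808% reached -1. These shares were 0.124% and 0.54% for si-PIR-3, 0.175% and 0.305% for miR-144-5p, 0.0907% and 0.0701% for miR-144-3p, 0.778% and 1.42% for miR-130-5p, and 0.558% and 0.286% for miR-130-3p. They were 0.137% and 0.342% for miR-204-5p in SW1990 cells and 0.113% and 0.378% in MDA-MB-231 cells. The median ratio of all genes was 0.016 to 0.022 on the arrays, and that of the 9 genes ran from -0.14 for miR-130-5p to 0.32 for miR-204-5p in MDA-MB-231 cells.

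**Figure D2:**
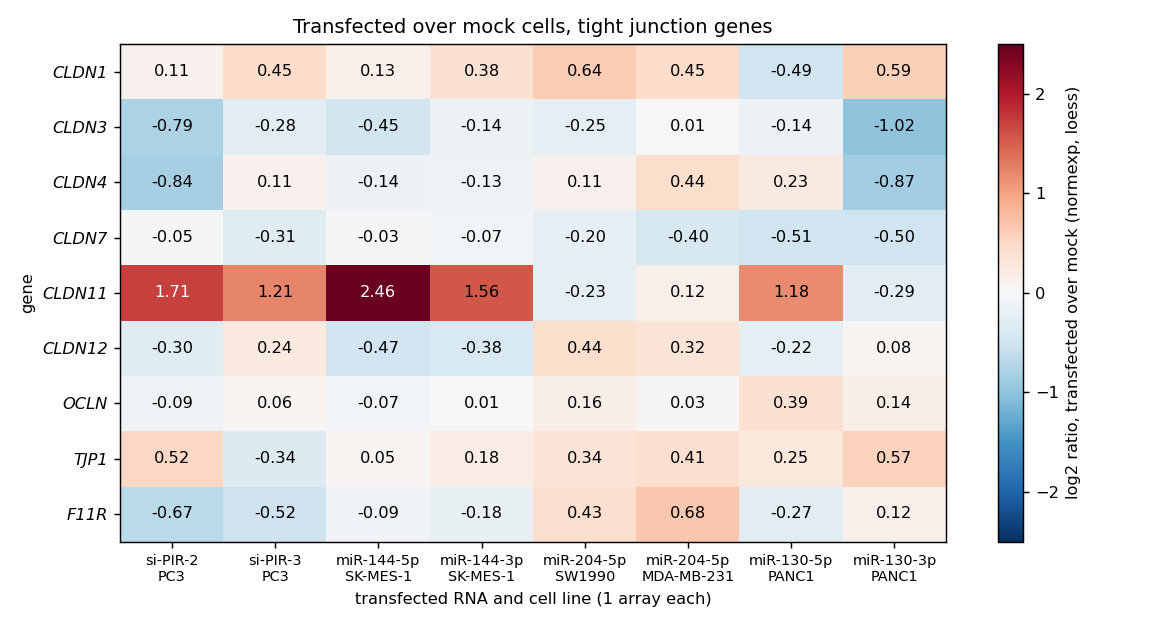
Log2 ratio of transfected over mock cells for the 9 genes on each of the 8 arrays, coloured from blue (lower than mock) to red (higher than mock). CLDN11 reached 1 on 5 arrays, the highest being 2.46 with miR-144-5p, and CLDN3 reached -1.02 with miR-130-3p. With median centring in place of loess, 24 of the 72 ratios changed sign.

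On the 2 si-PIR arrays, which chose it, CLDN11 had ratios of 1.71 and 1.21, with a mean of 1.46 ± 0.354 (SD, n = 2 arrays) or 2.75-fold. Its intensity went from 420 in mock to 2818 in transfected cells with si-PIR-2 and from 450 to 1769 with si-PIR-3. It was 1 of 7 genes (0.0312%) at 1 or more on both arrays, with 17 genes (0.0758%) at -1 or less on both. The ratios of the scanner software were 1.79 and 1.28.

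CLDN11 also had high ratios in SK-MES-1 cells. Its ratio there was 2.46 with miR-144-5p, the highest of 23934 genes on that array, and 1.56 with miR-144-3p, the fourth highest of 24254. Its intensity was 317 in mock and 3036 in transfected cells with miR-144-5p, and 299 and 1590 with miR-144-3p. Both arms of miR-144, which have different seeds, were thus followed by a high CLDN11 ratio, although both arrays belong to 1 line and have no replicate.

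In PANC1 cells, CLDN11 had a ratio of 1.18 with miR-130-5p (76.4 in mock, 261 in transfected cells) and -0.29 with miR-130-3p (71.2 and 76.3). With miR-204-5p, the ratio was -0.23 in SW1990 (351 and 496) and 0.12 in MDA-MB-231 cells (25.9 and 33.9). No CLDN11 ratio lay between 0.12 and 1.18, but the 5 high arrays are named by that same ratio, so the gap is only a description. The gap narrowed with the scanner ratio, where MDA-MB-231 cells had 0.85 and the lowest of the 5 high arrays 1.28. With an offset of 1, the MDA-MB-231 ratio was 0.53. SW1990 cells had a mock level like those of PC3 and SK-MES-1 cells but no high ratio. The 5 high ratios kept their sign under each scaling tried, whereas median centring turned the SW1990 and miR-130-3p ratios to 0.41 and 0.04. Subtracting the mean of the 6 other arrays, 0.80 with a range from -0.29 to 2.46, lowered the si-PIR mean of CLDN11 to 0.66.

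**Figure D3:**
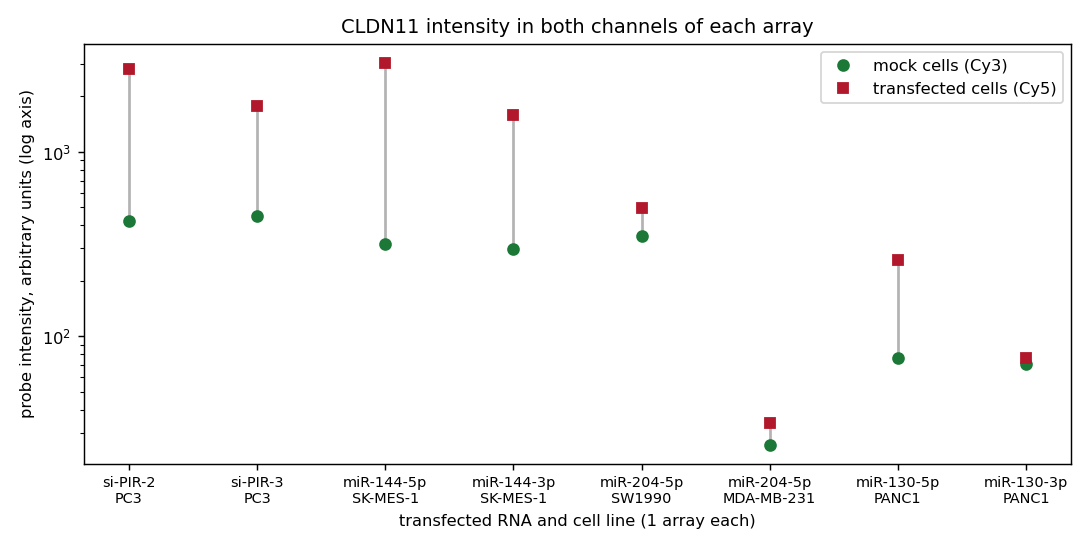
Intensity of the CLDN11 probe in mock cells (Cy3, circles) and transfected cells (Cy5, squares) of each array, on a log axis, before normalization. The transfected channel lay far above the mock channel on both si-PIR arrays, both miR-144 arrays and the miR-130-5p array, for example at 3036 against 317 with miR-144-5p.

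The ratios of PIR itself were set beside those of CLDN11. On the miR-130-5p array PIR had a ratio of -1.56, whereas on the miR-144-5p and miR-144-3p arrays it had ratios of -0.16 and 0.02. The ratios of PIR on the other 3 arrays ran from -0.27 to -0.002. A high CLDN11 ratio thus stood beside a low PIR ratio on 3 arrays and beside a PIR ratio near 0 on 2. Of the 3, 2 were the si-PIR arrays, where PIR was the target and by which CLDN11 was chosen, so both ratios were set there in advance. Whether the ratios of PIR and CLDN11 are linked was not tested. Among 2767 genes that passed the filter on all arrays with a range of at least 1, the 5 whose ratios followed CLDN11 most closely over the 8 arrays were SLC41A1, NAV2, DHX58, ENST00000554254 and CD82, with Pearson's r from 0.894 to 0.897. Of these, only the transcript ENST00000554254 had ratios of a like size, 2.31 with si-PIR-2 and 2.05 with miR-144-5p, but 0.32 with si-PIR-3. CD82, which encodes a tetraspanin, ran from -0.71 to 0.76. The 8 points share cell lines and their mock cells, and no p is given.

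CLDN3 had ratios below 0 on 7 of 8 arrays. They were -0.79 and -0.28 with si-PIR-2 and with si-PIR-3, -0.45 and -0.14 with miR-144-5p and miR-144-3p, -0.25 and 0.01 with miR-204-5p in SW1990 and MDA-MB-231 cells, and -0.14 and -1.02 with miR-130-5p and miR-130-3p. The lowest, with miR-130-3p, was the 63rd lowest of 23111 genes on that array, with an intensity of 253 in mock and 177 in transfected cells. Median centring turned 5 of these signs and left the ratio with miR-130-3p at -0.49, where the median of all genes was 0.31.

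CLDN4, whose probe lies 63.5 kb from that of CLDN3 on chromosome 7, had its lowest ratios on the same 2 arrays, -0.84 with si-PIR-2 and -0.87 with miR-130-3p. The other 6 ratios of CLDN4 were 0.11 with si-PIR-3, -0.14 and -0.13 with miR-144-5p and miR-144-3p, 0.11 and 0.44 with miR-204-5p in SW1990 and MDA-MB-231 cells, and 0.23 with miR-130-5p. The si-PIR arrays therefore did not give 1 direction for CLDN4, with a mean of -0.36 ± 0.67 (SD, n = 2 arrays). The CLDN4 ratio exceeded that of CLDN3 by 0.01 to 0.43 on 7 arrays and was 0.05 lower with si-PIR-2. Median centring made the CLDN4 ratio with si-PIR-2 0.36 and left that with miR-130-3p at -0.07. For both genes the ratio with miR-130-3p thus stayed below that of the median gene.

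**Figure D4:**
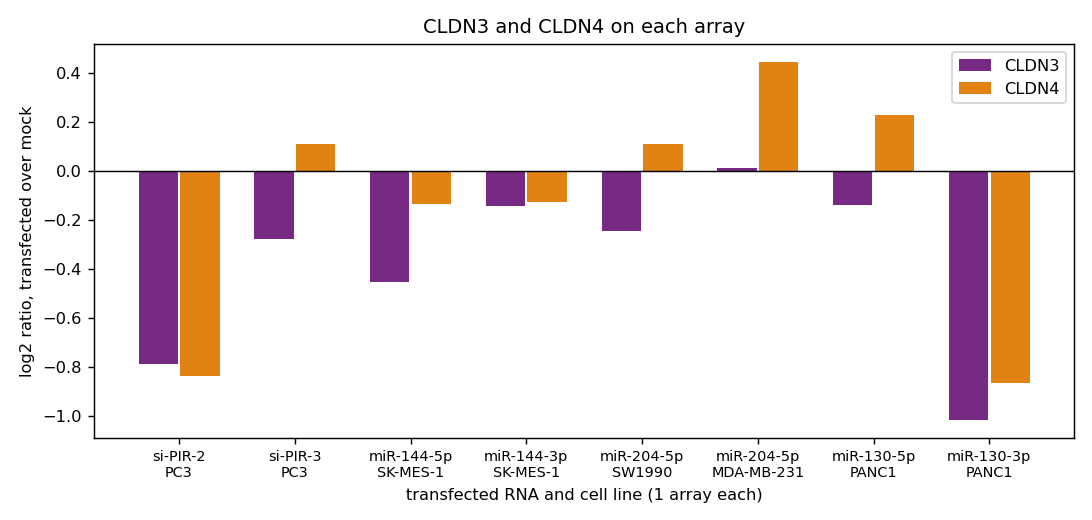
Log2 ratios of CLDN3 and CLDN4 on each array, as bars from 0. Both genes had their lowest ratios with si-PIR-2 (-0.79 and -0.84) and miR-130-3p (-1.02 and -0.87), of which the si-PIR-2 ratios changed sign with median centring.

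CLDN7 had a ratio below 0 on all 8 arrays, though with median centring this held for 3. The ratios were -0.05 and -0.31 with si-PIR-2 and with si-PIR-3, -0.03 and -0.07 with miR-144-5p and miR-144-3p, -0.20 and -0.40 with miR-204-5p in SW1990 and MDA-MB-231 cells, and -0.51 and -0.50 with miR-130-5p and miR-130-3p. The ratios nearest to 0 were those with si-PIR-2, miR-144-5p and miR-144-3p, where the mock intensity was 30 to 56.3. The offset holds the ratios of such dim probes near 0. With si-PIR-3, at a mock intensity of 57.2, the scanner ratio was -0.73, the lowest scanner ratio of CLDN7. In PANC1 cells the spliced CLDN7 product had nearly the same ratio with either arm of miR-130.

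The ratios of CLDN1 lay above 0 on 7 of 8 arrays under each scaling tried. They were 0.11 and 0.45 with si-PIR-2 and with si-PIR-3, 0.13 and 0.38 with miR-144-5p and miR-144-3p, 0.64 and 0.45 with miR-204-5p in SW1990 and MDA-MB-231 cells, and -0.49 and 0.59 with miR-130-5p and miR-130-3p. CLDN1 was thus opposite in sign between the arms of miR-130 in the same line. Its scanner ratio was 1.66 in MDA-MB-231 cells, where the intensities were 31.1 in mock and 65.6 in transfected cells, and this was the largest gap between the scanner ratio and the reported ratio for this gene.

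CLDN12 had ratios of -0.30 and 0.24 with si-PIR-2 and with si-PIR-3, -0.47 and -0.38 with miR-144-5p and miR-144-3p, 0.44 and 0.32 with miR-204-5p in SW1990 and MDA-MB-231 cells, and -0.22 and 0.08 with miR-130-5p and miR-130-3p. Those with si-PIR-2 and miR-130-5p were not below 0 with median centring. A second, dimmer CLDN12 probe stayed between -0.05 and 0.17.

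OCLN stayed within 0.39 of mock on all 8 arrays. Its ratios were -0.09 and 0.06 with si-PIR-2 and with si-PIR-3, -0.07 and 0.01 with miR-144-5p and miR-144-3p, 0.16 and 0.03 with miR-204-5p in SW1990 and MDA-MB-231 cells, and 0.39 and 0.14 with miR-130-5p and miR-130-3p. The second OCLN probe ran from -0.10 to 0.30 and had its highest ratio with miR-204-5p in SW1990 cells in place of miR-130-5p. Both probes were dim, with mock intensities from 29.7 to 78.2.

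TJP1, which encodes ZO-1, had ratios of 0.52 and -0.34 with si-PIR-2 and with si-PIR-3, 0.05 and 0.18 with miR-144-5p and miR-144-3p, 0.34 and 0.41 with miR-204-5p in SW1990 and MDA-MB-231 cells, and 0.25 and 0.57 with miR-130-5p and miR-130-3p. The si-PIR arrays were opposite in sign, with a mean of 0.09 ± 0.609 (SD, n = 2 arrays), and the negative ratio of si-PIR-3 became 0.24 with median centring. TJP1 and CLDN4 were the genes on which the 2 siRNAs differed most among the 9.

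F11R had ratios of -0.67 and -0.52 with si-PIR-2 and with si-PIR-3, -0.09 and -0.18 with miR-144-5p and miR-144-3p, 0.43 and 0.68 with miR-204-5p in SW1990 and MDA-MB-231 cells, and -0.27 and 0.12 with miR-130-5p and miR-130-3p. The second F11R probe gave -0.38 and -0.27 on the si-PIR arrays and 0.13 and 0.14 on the miR-204-5p arrays. Both probes were thus below mock with either siRNA and above mock with miR-204-5p, with a smaller size at the second probe. Median centring turned the si-PIR ratios of the brighter probe to 0.19 and 0.14, where the median of all genes was 0.33 and 0.25.

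miR-204-5p was the only miRNA given to 2 cell lines, and the mean ratio of the lines was tested against 0 over 20456 genes with limma. Of the 9 genes, 4 were higher (CLDN1, F11R, CLDN12 and TJP1) and 0 were lower, against 765 genes higher (3.74%) and 619 lower (3.03%) in all. F11R had a mean of 0.56 ± 0.0806 (moderated SE of limma, n = 2 lines, limma adjusted p = 0.0352), and CLDN1 a mean of 0.55 ± 0.0699 (adjusted p = 0.0301). CLDN12 had a mean of 0.38 ± 0.0612 (limma adjusted p = 0.0412) and TJP1 one of 0.38 ± 0.0574 (limma adjusted p = 0.0381). The moderated SE draws on the spread of all genes. The SD of the 2 lines themselves was 0.179 for F11R, 0.131 for CLDN1, 0.0811 for CLDN12 and 0.0493 for TJP1. The remaining 5 did not pass the test. Their means were 0.28 for CLDN4 and 0.10 for OCLN, and -0.05 for CLDN11, -0.12 for CLDN3 and -0.30 for CLDN7, with adjusted p from 0.0867 to 0.795 in limma. The signs of these last 3 turned with median centring.

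The 4 calls depended on the processing. With a normexp offset of 1, with the scanner ratio and without the filter on dim probes, none of the 4 passed (limma adjusted p from 0.0967 to 0.146, 0.221 to 0.241 and 0.0597 to 0.0799), although all 4 means stayed above 0. Set against the 6 other arrays in place of 0, a comparison chosen after the data were seen, none of the 9 genes passed, against 6 genes higher (0.0322%) and 43 lower (0.231%) of 18613. The 6 others were pairs of arrays from PC3, SK-MES-1 and PANC1 cells, which the fit took as independent. Cell line and miR-204-5p cannot be told apart in it. In that comparison, F11R was higher by 0.82 ± 0.201 (moderated SE, 2 against 6 arrays, limma adjusted p = 0.226) and CLDN12 by 0.56 ± 0.187 (limma adjusted p = 0.423). For both of these genes the 2 miR-204-5p ratios lay above all 6 others, whereas those of CLDN1 and TJP1 overlapped them. How many of all 18613 genes lay so was not counted, and this is only a description. CLDN11 was lower by 1.36 ± 0.59 (moderated SE, limma adjusted p = 0.587), the miR-204-5p ratios lying below 5 of the 6 others.

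**Figure D5:**
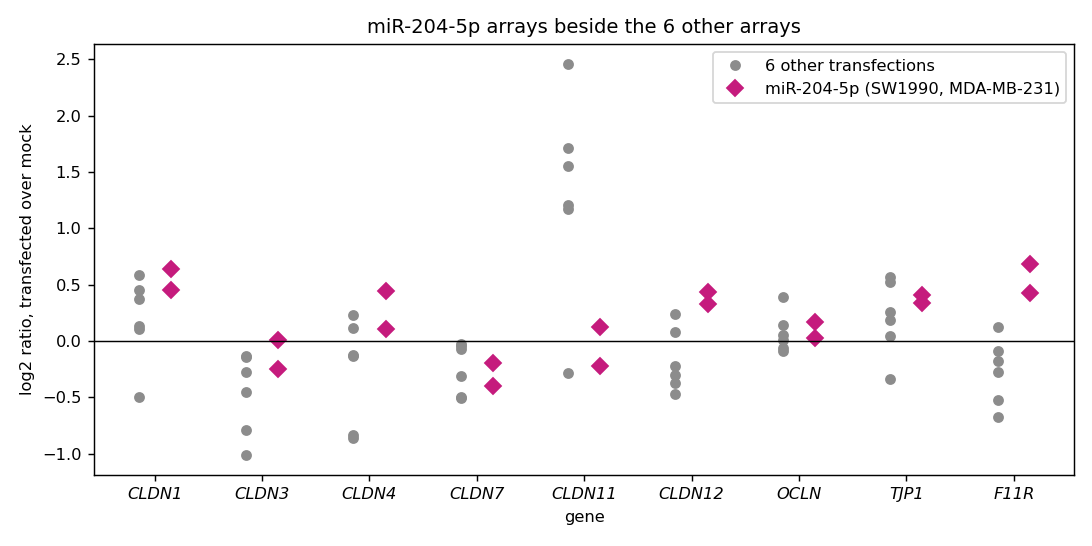
Log2 ratios of the 9 genes on the 2 miR-204-5p arrays (diamonds, SW1990 and MDA-MB-231 cells) and on the 6 arrays of other transfections (grey circles). The diamonds lie above all circles for CLDN12 and F11R, 1 of 2 lies above all circles for CLDN1, both lie within them for TJP1, and those of CLDN11 lie below 5 of the 6 circles. How many of all genes would lie above all circles in this way was not counted.

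The other genes of the tight junction were counted from a list of further claudins, membrane proteins and scaffold proteins, of which 51 were found on the array and 43 passed the filter on at least 1 array. The list's median ratio lay between -0.01 and 0.17 on the 8 arrays. Only 4 of these genes were past 1 on any array, all of them higher than mock. ILDR2, of the angulin family at contacts of 3 cells, had a ratio of 1.28 with miR-130-5p, and CXADR, the coxsackievirus and adenovirus receptor, one of 1.03 with miR-130-3p. PARD6B, a polarity protein, had a ratio of 1.23 with miR-130-3p, and AMOTL2, an angiomotin family protein, one of 1.42 with miR-144-5p. None of the further claudins, of which 10 of 17 passed on at least 1 array, was past 1 or -1.

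With miR-204-5p, 7 of 34 listed genes tested were higher and 0 lower, against 3.74% and 3.03% of all genes. The median of the listed genes was 0.05, against 0.02 for all genes. With an offset of 1, with the scanner ratio or without the filter on dim probes, 0 of all genes were called higher. The 7 were MARVELD2, or tricellulin, at 0.38 (limma adjusted p = 0.036), the plaque and polarity genes CGN, INADL, MPP5 and PARD6B at 0.32 to 0.56, MLLT4 at 0.37 and YBX3 at 0.52. Against the 6 other arrays none of the 7 passed (limma adjusted p from 0.772 to 0.993), and INADL and YBX3 had ratios above 0 on all 8 arrays. With si-PIR, 0 of 39 listed genes passed in either direction. In that fit 0 of 22431 genes were called higher (0%) and 0 lower (0%) in limma, with 1331 higher and 1088 lower at an unadjusted p under 0.05 and a smallest adjusted p of 0.44.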

How the data were processed

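The 9 genes and the gene lists were chosen with earlier results of these data known. Two-colour arrays of 8 transfections were read, each with its own mock channel. The scanner files deposited by the authors give, per spot, a linear Cy3 and Cy5 intensity, the local background, and a log10 ratio (Cy5 over Cy3) made by Agilent Feature Extraction 11.5.1.1 with its own correction and dye normalization. The value table that the authors deposited is identical to those log10 ratios (difference 0 in every cell compared), and each of its columns was assigned to a sample.

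In limma 3.58.1 (R 4.3.3), spot intensities were background-corrected (normexp, offset 50) and then normalized by loess per array. Control and outlier spots were excluded before averaging the spots of a probe. Mock levels are Cy3 values after Aquantile normalization, averaged over the arrays of a line. The probe of highest mean intensity stood for its gene, and a gene was used where 1 channel or both exceeded background clearly (by the scanner's own test) on every array compared. With 1 array per transfection, a log2 ratio of 1 or -1 was the threshold. Mean ratios were tested against 0 with lmFit and eBayes at a Benjamini-Hochberg adjusted p of 0.05. This leaves out how far mock cultures of a line vary, since the labels name no separate cultures. The si-PIR p-values measure the spread between arrays of the same line that received different siRNAs, so array and siRNA cannot be told apart in it. In limma this spread is moderated by that of all genes. The p-values of the miRNA given to different cell lines, each with its own mock cells, measure the spread between these lines, moderated in the same way. For si-PIR the 9 genes had no test, since that contrast was used to choose CLDN11.

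Genes named were the 9, listed genes past 1 or -1 on any array, PIR, and the 5 genes most like CLDN11 and CLDN3. The 7 listed genes called with miR-204-5p, the cell markers and OCLNP1 were named after their values were seen. Candidates for likeness to CLDN3 had at least its range divided by 2. Gene names and hg19 coordinates are those of the array design, and all 9 symbols were also paired with a probe's accession in RefSeq. Exons and UTRs were not assigned. All arrays were on 1 slide and in 1 scan, and their number limits the precision. The steps were tested on simulated data. The alternatives are given in the closing section. Figures were drawn with matplotlib 3.10.9.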

Additional observations from a re-analysis of the deposited data

How the results depend on the processing

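Results were recomputed with other background corrections (an offset of 1, or none), other scalings (median centring, Aquantile), the scanner ratio or the value table, averaged probes, and a looser or stricter filter on dim probes. Median centring left the median of all genes at 0.13 to 0.33 on the arrays, against 0.016 to 0.022 with loess. With it, 24 of the 72 ratios of the 9 genes changed sign, and 14 of 72 did so relative to the median of all genes. It gave 5715 genes higher and 10 lower with si-PIR, where 0 and 0 were called, 10715 higher and 94 lower with miR-204-5p, where 765 and 619 were called, and 16 member ratios at 1 or more and 0 at -1 or less, in place of 5 and 1.

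With miR-204-5p, 0 genes were called higher with an offset of 1, with the scanner ratio, with the deposited value table and without the filter on dim probes. The numbers called lower were 7, 0, 0 and 0. Against the 6 other arrays, 6 were higher and 43 lower. Of the 4 members called, CLDN1 and F11R also passed without background correction, where CLDN12 and TJP1 did not (limma adjusted p = 0.0531 and 0.0581), and CLDN12 and F11R did not pass with the mean over probes (limma adjusted p = 0.0716 and 0.0519). The cause was not tested.

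The miR-204-5p mean of CLDN3, -0.12, became 0.28 with median centring and 0.35 against the 6 other arrays, and that of CLDN7, -0.30, became 0.27 with median centring. That of CLDN11, -0.05, became 0.11 with an offset of 1, 0.026 without background correction, 0.27 with the scanner ratio and the value table, and 0.29 with median centring. With median centring CLDN3 passed the test as higher (limma adjusted p = 0.0324), as did CLDN4 at 1.08 (limma adjusted p = 0.00583). At a threshold of 0.5, 10 member ratios were higher and 7 lower.

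The si-PIR mean of CLDN11, 1.46, was 2.22 with median centring and 0.66 once the mean of the 6 others was subtracted, and 1.21 to 1.71 with either array left out. Under the 2 other normalizations of the mock levels the highest line stayed that of the report for all 9 genes, and the lowest line of CLDN4 changed from MDA-MB-231 to SK-MES-1 with the processed Cy3 signal scaled to the 75th percentile. With that scaling 6 genes again ranged by 2 or more, with OCLN at 2.39 in and CLDN4 at 1.95 out. The ratio within each array already pairs transfected with mock cells of the same line. No further pairing between arrays was possible because the groups compared share no replicate numbers. With no dye swap, a probe's dye bias and its change cannot be told apart, and dim probes such as those of OCLN carry ratios that the offset holds close to 0.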
